A study of Mus musculus with 16 samples.

Results

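Matrix metalloproteinases and their tissue inhibitors were followed across RNA-seq libraries of RAW264.7, a mouse macrophage line derived from a leukaemia. The set comprises 9 genes picked by symbol, 6 metalloproteinases (Mmp8, Mmp9, Mmp12, Mmp13, Mmp14 and Mmp19) and 3 inhibitors (Timp1, Timp2 and Timp3), out of 21965 genes in the deposited table. The 4 groups, with 4 libraries each, were cells given both oxLDL and tirzepatide (the combination), oxLDL alone at 50 µg/ml, tirzepatide alone at 100 nmol/ml, and control cells given culture medium as vehicle. OxLDL is oxidised low-density lipoprotein, the modified particle that macrophages take up in plaques. Tirzepatide is a peptide agonist of the receptors for the incretins GIP and GLP-1. The dose of tirzepatide is printed as labelled, though nmol/l may be meant. Neither the treatment time nor the origin of replicate libraries (separate cultures or not) is stated, and p-values therefore reflect the spread among these libraries, which may be technical. All groups shared 1 cell line and a high-glucose medium with serum.

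Metalloproteinases are zinc-dependent enzymes that cut collagens, elastin, gelatin and other matrix proteins, and most are secreted as latent proenzymes that must be activated. The TIMP proteins bind the active site and block it, so that the balance of enzyme and inhibitor sets how much matrix is cut. In atherosclerotic plaques, macrophages and the foam cells they become are a main source of these enzymes, which can thin the fibrous cap.

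Library totals ran from 15877278 to 17336019 estimated counts, and 11319 genes passed the filter on low counts and were tested. All 10 macrophage markers on the list used were expressed, with Lyz2 at 18730 TPM (a transcript level scaled for transcript length and sequencing depth) and Csf1r at 810 TPM on average. Most of the summed level of the list was Lyz2, and not every marker followed the sum across the groups. The sum was 22211 to 24515 TPM with the combination, 22619 to 23986 with oxLDL and 21152 to 22044 with tirzepatide. In controls it was 17843 to 19089 TPM, and its part in the results was not tested. The 8 fibroblast markers summed to 0.489 to 2.24 TPM in a library. The 8 neutrophil markers summed to 1.63 to 6.64 TPM, and their defining marker Ly6g was at 0. The 8 osteoclast markers summed to 43.7 to 65.4 TPM, most of it Nfatc1 at 43.7 TPM on average, with Acp5 at 5.42 TPM, Ctsk at 0.952 TPM and Calcr at 0. Controls 1 and 2 stood apart from the rest, since they held pancreatic acinar transcripts at a summed 258 and 136 TPM, against 6.50 to 46.9 TPM in the other libraries. Library 2 of the combination stood apart as well: Fos was at 8.45 TPM in it and 24.8 to 33.9 TPM in the other combination libraries, and Lcn2 at 570 TPM against 248 to 314 TPM. Calls that rest on them are also given without them.

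Of the 9 members, 4 were measured: Mmp9 (ENSMUSG00000017737), Mmp19 (ENSMUSG00000025355), Timp1 (ENSMUSG00000001131) and Timp2 (ENSMUSG00000017466). Mmp8, Mmp12, Mmp13, Mmp14 and Timp3 had under 10 counts in 14 to 16 of the 16 libraries and are treated as not measured. The same 4 genes passed the filter on low counts, Timp1 with 10 or more counts in 13 libraries and Timp2 in 15. Averaged over the 16 libraries, Mmp9 stood at 55.7 TPM, above 76.1% of tested genes. Mmp19 averaged 6.96 TPM, Timp1 2.37 TPM and Timp2 0.608 TPM, the last above only 3.35% of tested genes. Across the 23 mouse metalloproteinase genes looked up, Mmp9 made up 72.1% to 84.4% of the summed TPM of a library. Mmp9 was thus the main metalloproteinase transcript in every library, and both inhibitor transcripts stood far below it.

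**Figure D1:**
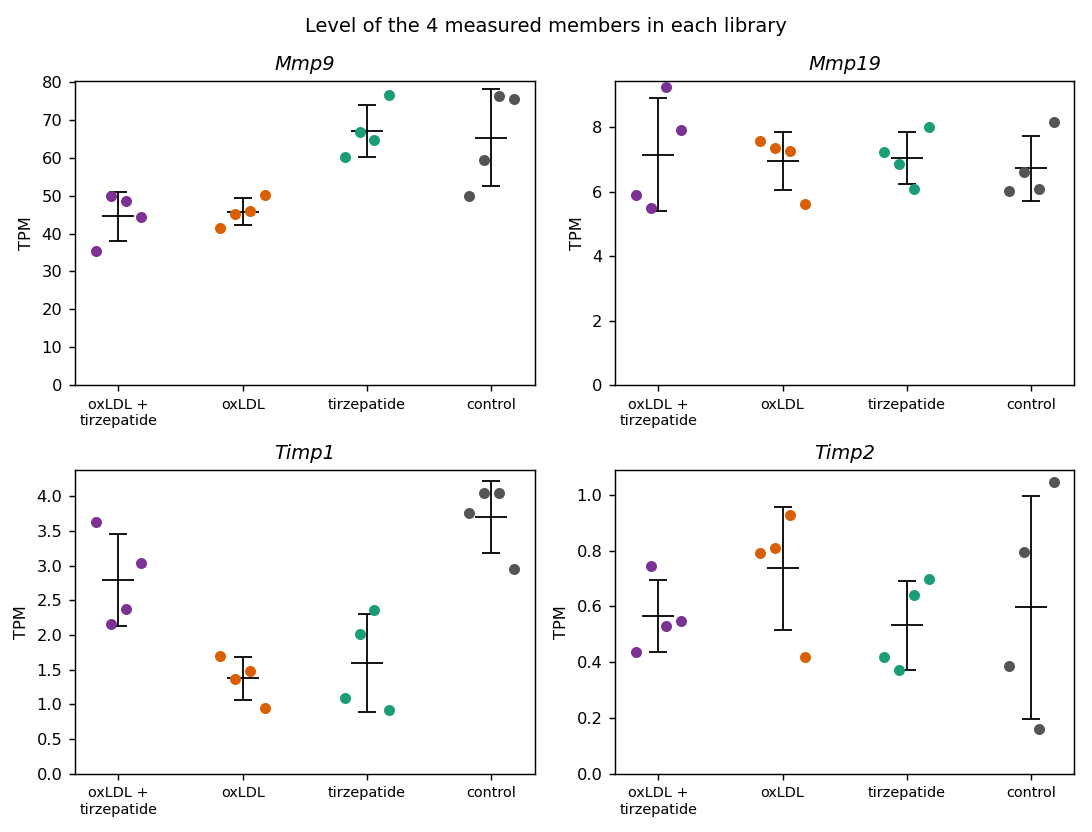
TPM of Mmp9, Mmp19, Timp1 and Timp2 in each of the 16 libraries, with the mean and SD of each group of 4. Mmp9 lay at 35.5 to 50.3 TPM in the 8 libraries with oxLDL, and Timp1 lay at or below 2.37 TPM in every library given a single agent.

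Mmp9 encodes gelatinase B, which cuts gelatin and the type IV collagen of basement membranes. The transcript was lower wherever oxLDL was present, with or without tirzepatide, and tirzepatide alone left it near the control level. The combination libraries had 35.5, 49.9, 48.7 and 44.4 TPM, and the oxLDL libraries 41.55, 45.2, 46.1 and 50.3 TPM. The tirzepatide libraries had 60.3, 66.9, 64.9 and 76.7 TPM, and the controls 50.0, 59.5, 76.3 and 75.5 TPM. No library with oxLDL reached the lowest tirzepatide library, while control 1 at 50.0 TPM lay within the range of the oxLDL libraries and just above the highest combination library. In RNA from whole cultures, fewer cells carrying a transcript and less transcript per cell cannot be told apart.

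The 3 comparisons that set oxLDL against its absence gave similar sizes for Mmp9. It fell by 30.4% with oxLDL against control (log2 change -0.52, SE 0.10, adjusted p = 0.00155 by edgeR's quasi-likelihood test with Benjamini-Hochberg adjustment, as for all adjusted p-values below unless another tool is named). Against control, the combination gave a log2 change of -0.55 (SE 0.10, adjusted p = 0.00083). Against tirzepatide alone, the combination gave -0.57 (SE 0.10, adjusted p = 0.00237), a fall in which the 4 combination libraries did not overlap the 4 tirzepatide libraries. Groups without overlap in the lower direction were found for 4.4% of tested genes in that comparison and for 3.27% for the combination against control. The oxLDL and combination comparisons with control share their 4 controls and are not independent. Both combination comparisons likewise share the 4 combination libraries, and the one with control also differs by tirzepatide. Of the 4 measured members 2 were lower with oxLDL against control, where 2.05% of all tested genes were called lower. Of the same 4, 1 was lower for the combination against control, where 4.25% of tested genes were called lower, and 1 for the combination against tirzepatide, where 0.777% were. The median log2 change of the 4 was -0.32 with oxLDL, -0.06 with tirzepatide and -0.22 with the combination, each against control, where that of all tested genes was -0.00.

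Mmp9 passed the test in these 3 comparisons under each of 25 alternative settings. Without controls 1 and 2 its log2 change with oxLDL was -0.71, and without library 2 of the combination it was -0.62 for the combination against control. That library had 49.9 TPM of Mmp9, the highest of its group but below all tirzepatide libraries.

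Tirzepatide made no detectable difference to Mmp9. Its mean was 67.2 ± 6.90 TPM with tirzepatide and 65.3 ± 12.8 TPM in controls (SD, n = 4 each), with a log2 change of 0.02 and a 95% interval from -0.18 to 0.21. In the presence of oxLDL the means were 44.6 ± 6.49 TPM with the combination and 45.8 ± 3.59 TPM with oxLDL alone (SD, n = 4 each), with a log2 change of -0.03 and an interval from -0.24 to 0.17. The sign of both values turned in some alternative settings. The interaction, the log2 change of the combination less those of both agents alone, was -0.05 (SE 0.14, adjusted p = 0.927). The order of the group means was thus tirzepatide, control, oxLDL and combination, in which the first pair and the last pair did not differ beyond their spread.

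Timp1 encodes the secreted inhibitor that binds both active metalloproteinases and latent pro-MMP-9. Its transcript was lower with either agent alone, and closer to the control level when the agents were combined. The combination libraries had 3.63, 2.16, 2.37 and 3.03 TPM. The oxLDL libraries had 1.70, 1.36, 1.48 and 0.948 TPM, and the tirzepatide libraries 1.09, 2.01, 2.365 and 0.917 TPM, against 3.77, 4.04, 4.04 and 2.95 TPM in the controls. Neither single-agent group overlapped the controls, and the combination libraries lay above all oxLDL libraries but overlapped both the tirzepatide libraries and the controls. The counts behind these levels were small, 16 to 25 per library with the combination, 7 to 12 with oxLDL, 6 to 17 with tirzepatide and 21 to 29 in the controls.

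Timp1 fell by 62.0% with oxLDL against control (log2 change -1.40, SE 0.33, adjusted p = 0.0124). It fell by 57.2% with tirzepatide against control (log2 change -1.22, SE 0.32, adjusted p = 0.0322), where 1 of the 4 measured members and 1.74% of all tested genes were called lower. For comparison, groups without overlap were found for 3.44% of tested genes in the lower direction with oxLDL and for 2.68% with tirzepatide. These comparisons with control again share the controls. The call for tirzepatide was lost without control 1, 2 or 3 or tirzepatide 1, 2 or 4 (adjusted p from 0.0588 to 0.116), and that for oxLDL without oxLDL 4 (adjusted p = 0.0597). Without controls 1 and 2 together the log2 changes were -1.29 with oxLDL (adjusted p = 0.119) and -1.12 with tirzepatide (adjusted p = 0.187). Controls 1 and 2, which held the acinar transcripts, had 3.77 and 4.04 TPM of Timp1, and controls 3 and 4 had 4.04 and 2.95 TPM. The part of the acinar transcripts in these results was not tested.

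The combination did not pass against any other group for Timp1. Against control it had a log2 change of -0.40 (interval from -1.02 to 0.23, adjusted p = 0.461). Against oxLDL it had 1.00 (interval from 0.30 to 1.70, adjusted p = 0.358). In that comparison edgeR called 0 of the 4 measured members, and 1 had an unadjusted p under 0.05. Of all tested genes 0.0353% were called and 10.1% had an unadjusted p under 0.05. DESeq2 also called 0 of the 4, but it gave no adjusted p for Timp1 or Timp2. For that comparison 3.08% of tested genes had groups without overlap in the higher direction. Against tirzepatide the log2 change was 0.83 (interval from 0.14 to 1.52, adjusted p = 0.255). The interaction was 2.23 (SE 0.47, interval from 1.25 to 3.20), with an adjusted p of 0.0814 that missed the threshold in a comparison where 0.0707% of tested genes were called. With the replicate number as a block the interaction had an adjusted p of 0.0478. Over the other 21 alternatives that gave a value, 16 of them with a library left out, its adjusted p stayed above the threshold. DESeq2 gave no adjusted p for it and was not among them. In order of their means the groups were control at 3.70 ± 0.518 TPM, combination at 2.80 ± 0.665 TPM, tirzepatide at 1.595 ± 0.703 TPM and oxLDL at 1.37 ± 0.317 TPM (SD, n = 4 each), and no 2 neighbours in this order differed past the threshold where the design tested them.

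**Figure D2:**
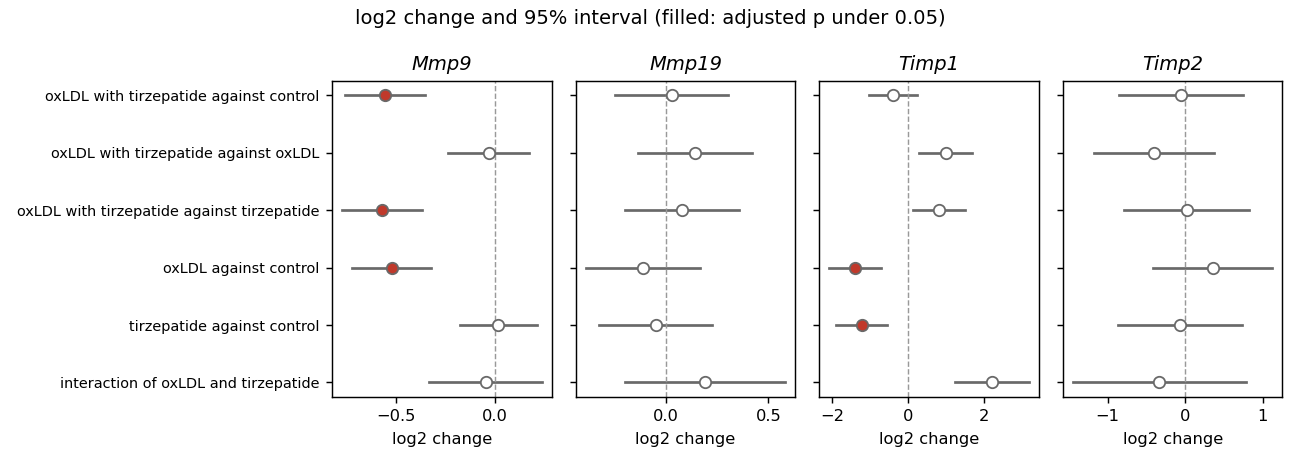
log2 change (points) with its 95% interval (bars) of Mmp9, Mmp19, Timp1 and Timp2 in the 6 comparisons, with filled points for an adjusted p under 0.05. Mmp9 was called in the 3 comparisons that differ by oxLDL, near -0.5 each, and Timp1 in both single-agent comparisons with control.

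The promoter of Timp1 is shown because this gene had the largest changes of the measured members. The sequence upstream of its annotated start and a short stretch just after that start are taken from RefSeq on GRCm38.p6, an earlier build than the one named for the deposited counts, and both are on the plus strand. The first covers chrX:20869916-20870165 and the second chrX:20870190-20870213, and capitals mark matches to TGAGTAA or GGAAG.
Timp1 upstream: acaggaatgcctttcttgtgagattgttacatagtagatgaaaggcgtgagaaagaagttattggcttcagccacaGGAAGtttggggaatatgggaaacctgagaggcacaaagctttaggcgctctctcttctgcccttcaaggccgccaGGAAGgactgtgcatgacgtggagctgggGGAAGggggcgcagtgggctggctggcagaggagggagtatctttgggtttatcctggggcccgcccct
Timp1 start: gaTGAGTAAtgcgtccaGGAAGcc
TGAGTAA, a variant of the AP-1 motif, was found at bases 27 to 33 counted from the start, and GGAAG, which holds the GGAA core of ETS factor sites, followed at bases 42 to 46. Within the 300 bases of the window, 1 match to TGAGTAA, 4 to GGAAG and 0 to TGANTCA were found on either strand. TGANTCA is a pattern for AP-1 sites that allows any base at N. Among 32851 promoters of the same length, 2.68% held TGAGTAA, 71.4% GGAAG and 7.81% TGANTCA. Of the 9 members 7 had a promoter in the table, and Mmp9 and Mmp19 had none.

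Timp1 lies inside the gene Syn1, which runs on the opposite strand, with 0 shared exon bases in the GENCODE M21 annotation. The strand setting of the counting is not given in the sources used here, so reads of the pair cannot be told apart by strand. Syn1 itself had 219 to 356 counts per library. Its levels were 10.9 ± 0.464 TPM with the combination, 9.77 ± 1.16 TPM with oxLDL, 12.1 ± 1.68 TPM with tirzepatide and 12.2 ± 1.255 TPM in controls (SD, n = 4 each). Its log2 change was -0.32 with oxLDL (SE 0.10, adjusted p = 0.0578) and -0.04 with tirzepatide (SE 0.09, adjusted p = 0.874), and the part of Syn1 in the Timp1 values was not tested.

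Setting the transcript of the protease over that of its inhibitor, the ratio of Mmp9 to Timp1 TPM had a median of 17.6 with the combination (9.80 to 23.1). It was 32.1 with oxLDL (24.4 to 53.1), 44.3 with tirzepatide (27.4 to 83.6) and 16.8 in controls (13.3 to 25.6). The ranges of the single agents thus overlapped each other, those of the combination and the controls overlapped as well, and the lowest oxLDL library at 24.4 lay below the highest control at 25.6. The ratio is given with no test. Timp1 but not Mmp9 passed with tirzepatide, and both passed with oxLDL.

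**Figure D3:**
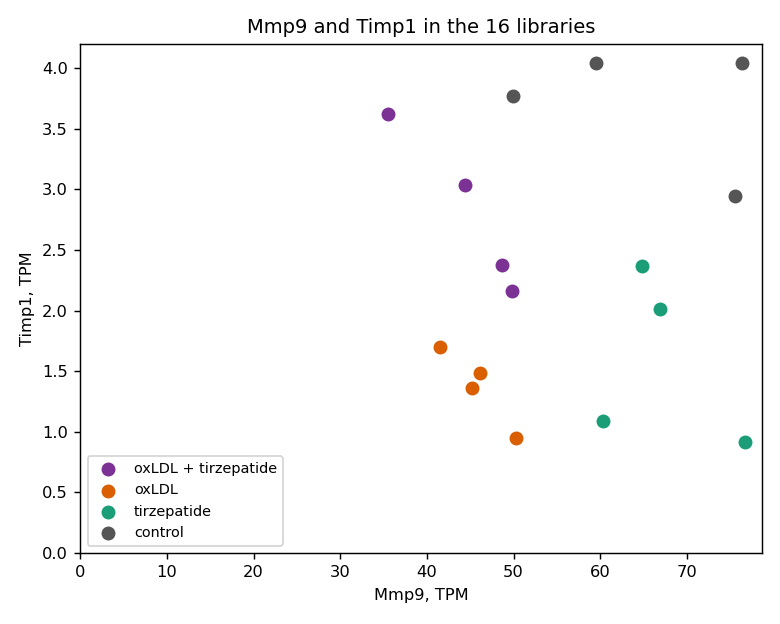
Mmp9 (horizontal, TPM) against Timp1 (vertical, TPM), with 1 point per library and colours for the 4 groups. The combination libraries share the lower Mmp9 of the oxLDL libraries but have higher Timp1, at 2.16 to 3.63 TPM against 0.948 to 1.70 TPM.

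Mmp19, a secreted metalloproteinase that cuts basement membrane proteins, stayed level. It had 5.90, 5.50, 9.23 and 7.91 TPM with the combination and 7.575, 7.35, 7.26 and 5.63 TPM with oxLDL. The tirzepatide libraries had 7.23, 6.84, 6.06 and 8.015 TPM, and the controls 6.02, 6.59, 6.09 and 8.16 TPM. All groups overlapped each other, and no comparison passed. The log2 changes were 0.03 for the combination (interval from -0.25 to 0.30), -0.11 for oxLDL (from -0.39 to 0.16) and -0.05 for tirzepatide (from -0.33 to 0.23), each against control. Mmp19 and Tmem198b, on the opposite strand, share 789 exon bases, and Mmp19 counts were not whole numbers, so its level is uncertain where reads of the pair were split. Tmem198b had 241 to 335 counts per library.

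Timp2 encodes the inhibitor that, with the membrane-bound protease MMP-14, also takes part in activating pro-MMP-2. The combination libraries had 0.438, 0.746, 0.531 and 0.547 TPM and the oxLDL libraries 0.790, 0.809, 0.929 and 0.418 TPM. The tirzepatide libraries had 0.420, 0.372, 0.640 and 0.697 TPM, against 0.386, 0.797, 0.159 and 1.05 TPM in the controls. The TPM of the controls, at 5 to 25 counts, spanned the TPM of every other group. The log2 change with oxLDL was 0.35 (interval from -0.42 to 1.13, adjusted p = 0.678), and the interval of each other comparison also included 0. For the combination against oxLDL the interval ran from -1.18 to 0.37. Changes as large as the ends of these intervals were thus not excluded at this depth.

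The members did not move as a block. Over the 16 libraries, Pearson's r of log2 CPM between the 6 pairs of measured members ran from -0.29 for Mmp9 with Timp2 to 0.15 for Mmp19 with Timp1, as a description of libraries that share treatments. The tested genes whose pattern over the 16 libraries was most like that of Mmp9 were Avil (r = 0.965), Raver1 (r = 0.946) and Cited2 (r = 0.943). After the group means were subtracted, they were Pxn (r = 0.982), which encodes the focal adhesion protein paxillin, Coro1c (r = 0.966), which encodes a coronin that binds actin, and Irf2bpl (r = 0.958). For Timp1 the nearest genes were Sesn1 (r = 0.821), Cep97 (r = 0.820) and Shprh (r = 0.801), and after subtraction Eif4a1 (r = 0.902), Ahctf1 (r = 0.894) and Lgalsl (r = 0.878). They were the highest of 11318 correlations in each case, and Timp1's counts were low.

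The 5 members not measured are given as counts, summed within each group of 4. Mmp8, the neutrophil collagenase, had 0 with the combination, 0 with oxLDL, 0 with tirzepatide and 4 in controls. Mmp12, the macrophage elastase, had 3, 2 and 12 with the combination, oxLDL and tirzepatide, and 14 in controls. Both are known products of macrophages or neutrophils in tissue, and neither exceeded 7 counts in a library. Mmp13, the main interstitial collagenase of mice, had 35 with the combination, 14 with oxLDL, 10 with tirzepatide and 18 in controls. In the combination the Mmp13 counts were 0, 9, 16 and 10, so that library 1 held none while the other libraries were the highest of the series. Mmp14, the membrane-bound activator of pro-MMP-2, had 18 with the combination, 13 with oxLDL, 11 with tirzepatide and 1 in controls, where 3 of the 4 libraries were at 0. Timp3, the matrix-bound inhibitor that also blocks ADAM17, had 25 with the combination, 15 with oxLDL, 16 with tirzepatide and 34 in controls, of which 20 came from control 2. No test was run on these 5 genes.

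**Figure D4:**
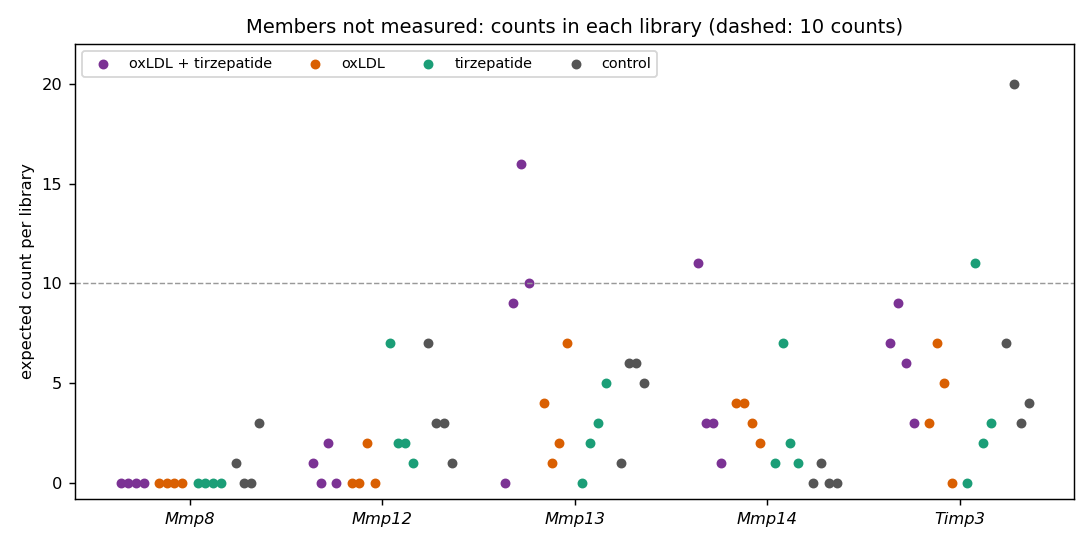
Expected counts per library of Mmp8, Mmp12, Mmp13, Mmp14 and Timp3, coloured by group, with a dashed line at 10 counts. Of the 80 values 5 reach the line, the highest being 20 for Timp3 in control 2.

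The remaining metalloproteinases and Timp4 gave no call. Of 18 such genes 4 were tested: Mmp28 at 2.55 TPM on average, Mmp11 at 1.80, Mmp2 at 1.52 and Mmp23 at 1.21 TPM. In each of the 6 comparisons DESeq2 called 0 of the 4, but it gives no adjusted p to genes it finds too low, as for all 4 in the interaction. By edgeR 0 of the 4 passed in each comparison, and 0 had an unadjusted p under 0.05. Of all tested genes, 18% had such a p with oxLDL, 18.6% with tirzepatide and 23.4% with the combination, each against control, 13.8% for the combination against tirzepatide and 10.3% for the interaction. The remaining 14 genes were too low to test, among them the inhibitor Timp4, at 0 in all libraries. The stromelysin Mmp3, also untested, had 45 counts summed over the combination libraries, at 0 to 18 per library. Its sums were 3 with oxLDL, 5 with tirzepatide and 4 in controls.

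Genes that activate, anchor, clear or induce metalloproteinases moved in different directions. Of 18 such genes 13 were tested, of which Lcn2, which encodes lipocalin 2, had the highest mean level at 394 TPM, while Reck, a membrane anchor that inhibits metalloproteinases, had 2 counts in all 16 libraries together. With oxLDL 2 were called higher and 1 lower, against 4.54% of all tested genes called in either direction, with a median log2 change of -0.01 for the list and -0.00 for all genes. Those that rose were Plaur, the urokinase receptor (0.32, SE 0.09, adjusted p = 0.0451), and the tetraspanin Cd63 (0.23, SE 0.05, adjusted p = 0.00601). The one called lower was Plat, tissue plasminogen activator, at 0 to 7 counts per oxLDL library and 6 to 16 per control, which is too low to be taken as measured. Cd63 passed whichever library was left out, whereas Plaur passed in 5 and Plat in 4 of the 16 such fits.

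With tirzepatide alone 2 of the 13 rose, where 4.08% of tested genes were called. Plaur reached 29.2 ± 2.18 TPM with tirzepatide, against 22.02 ± 1.08 TPM in controls (SD, n = 4 each; log2 change 0.37, SE 0.09), a call that passed in 12 of the 16 fits with a library left out. Lcn2 had a log2 change of 0.75 with tirzepatide (SE 0.15, adjusted p = 0.00587), at 605 ± 41.0 TPM with tirzepatide and 353 ± 44.7 TPM in controls (SD, n = 4 each). For the combination 1 gene fell against control and 2 against tirzepatide, where 8.94% and 1.54% of tested genes were called. Plau, the protease urokinase, stood at 17.3 ± 1.89 TPM with the combination and 24.2 ± 1.07 TPM in controls (SD, n = 4 each), a log2 change of -0.49 (SE 0.09, adjusted p = 0.00161) that passed in all 16 such fits. Against tirzepatide Plau had -0.37 (SE 0.09, adjusted p = 0.0412), which passed in 4 of the 16 fits, and Lcn2 had -0.73 (SE 0.15, adjusted p = 0.00924), which passed in 15, all but that without library 4 of the combination. Without library 2 of the combination this Lcn2 value was -1.04.

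Among ADAM and ADAMTS proteases, which shed cell surface proteins or cut proteoglycans, 9 of 21 were tested and 3 were called with oxLDL, where 4.54% of all tested genes were. Adam8 rose by 0.28 on the log2 scale (SE 0.05, adjusted p = 0.00139) and Adam17, which releases TNF from the cell surface, by 0.15 (SE 0.04, adjusted p = 0.0306). Adam10, the list's most abundant gene at 382 TPM on average, fell by 0.16 on the log2 scale (SE 0.04, adjusted p = 0.0277). Adam8 stood at 420 ± 13.3 TPM with oxLDL and 345 ± 29.5 TPM in controls (SD, n = 4 each). The Adam8 call held in all 16 fits with a library left out, the Adam17 call in 11 and the Adam10 call in 12. Adam8 and Adam17 also rose with the combination against control, by 0.18 and 0.16 on the log2 scale (SE 0.05 and 0.04), in 11 and 13 of the 16 fits. The median log2 change of the 9 with oxLDL was -0.09. With tirzepatide alone edgeR called 0 of the 9, DESeq2 called 1 and 3 had an unadjusted p under 0.05.

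Of 26 matrix and secreted substrates, 16 were tested and 1 was called, with oxLDL, a share near the 4.54% of all tested genes. That gene was Spp1, which encodes osteopontin, a substrate of several metalloproteinases and the most abundant transcript on the list. It stood at 20706 ± 572 TPM with oxLDL and 16710 ± 1008 TPM in controls (SD, n = 4 each; log2 change 0.30, SE 0.06, adjusted p = 0.00448), and it passed in all 16 fits with a library left out. The median of the 16 with oxLDL was -0.28. Col1a1, which encodes a chain of type I collagen, was at 0.288 TPM on average. With tirzepatide and with the combination against control edgeR called 0 of the 16, DESeq2 called 1 in each, and 2 and 1 had an unadjusted p under 0.05.

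Transcription factors with known sites in metalloproteinase promoters were also counted. Of 21 factors 20 were tested, with Fosl2 the most abundant at 305 TPM on average, and 3 rose with oxLDL, 2 with tirzepatide, and 3 rose and 2 fell with the combination, each against control, where 4.54%, 4.08% and 8.94% of all tested genes were called. Their median log2 changes were 0.03, 0.09 and -0.07. Fos, a subunit of AP-1, had 25.2 ± 11.95 TPM with the combination, 27.5 ± 2.94 TPM with oxLDL, 9.95 ± 1.12 TPM with tirzepatide and 7.95 ± 0.760 TPM in controls (SD, n = 4 each). Its log2 change was 1.78 with oxLDL against control (SE 0.24) and 1.35 for the combination against tirzepatide (SE 0.23, adjusted p = 0.00246). Without library 2 of the combination that last value was 1.64, and the combination gave 1.93 against control in place of 1.65. Fosl1, the AP-1 subunit FRA-1, rose by 0.29 with oxLDL (SE 0.06, adjusted p = 0.00569) and by 0.24 with tirzepatide (SE 0.06, adjusted p = 0.0293) on the log2 scale. Ets2 rose with oxLDL (0.17, SE 0.04) and Nfkb1, which encodes the p50 subunit of NF-kB, with tirzepatide (0.22, SE 0.06). With the combination against control Elf1 rose (0.20, SE 0.05), and Runx2 (-0.24, SE 0.06) and Nfatc1 (-0.24, SE 0.07) fell.

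Calls among these related genes depended on the libraries in several cases. With a library left out in turn, Fos passed in all 16 fits in its 3 comparisons and Fosl1 with oxLDL in all 16. Fosl1 with tirzepatide passed in 11, Nfkb1 in 9, Ets2 in 14, Elf1 in 15, Runx2 in 12 and Nfatc1 in 12. Fosl1 with the combination against control, 1 of the 3 factors counted as higher there, passed in only 3. Without controls 1 and 2 the calls for oxLDL against control that held were those of Cd63, Spp1 and Fos, and of the tirzepatide calls that of Lcn2. For the combination against control, those of Plau, Fos, Elf1 and Nfatc1 held without these controls. Without library 2 of the combination every call of a related gene held except that of Runx2 (adjusted p = 0.0586). Other calls were gained in these fits, and part of them are given here. For the combination against control, the 13 genes that activate, anchor, clear or induce metalloproteinases had 3 called lower in either fit in place of 1. The substrates there had 2 called without controls 1 and 2 and 1 without library 2 of the combination, in place of 0. Without library 2 of the combination, the ADAM genes and the substrates each had 1 called in place of 0 with tirzepatide against control and for the combination against tirzepatide. In that fit 1 of the 13 was also called lower in the interaction, in place of 0. Without controls 1 and 2, 1 of the 13 and 1 of the factors were called lower with tirzepatide against control, in place of 0 each. Both sets of fits were chosen with the odd libraries known.

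**Figure D5:**
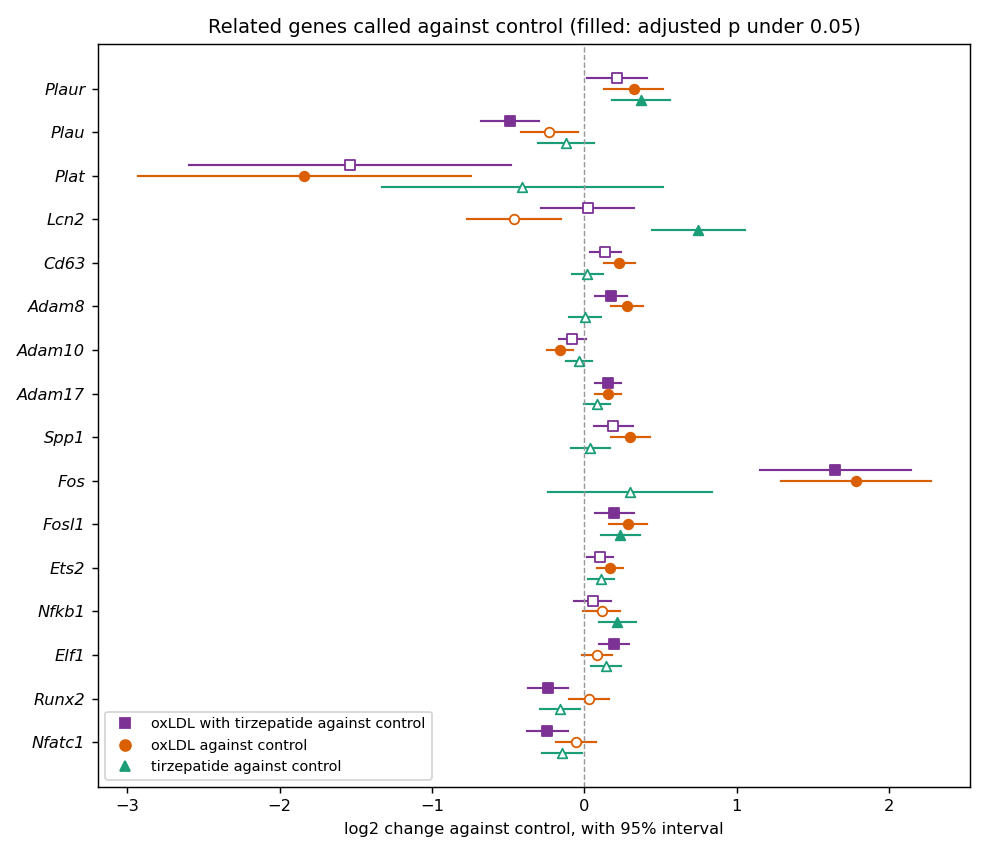
log2 change against control (points) with its 95% interval (bars) of the 16 related genes called in at least 1 of the 3 comparisons with control, for the combination (squares), oxLDL (circles) and tirzepatide (triangles), filled where the adjusted p was under 0.05. Fos lay at 1.65 with the combination and 1.78 with oxLDL, Plat, at very low counts, at -1.84 with oxLDL, and Lcn2 at 0.75 with tirzepatide, and the other called values lay within 0.5 of 0.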

How the data were processed

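RNA from RAW264.7 cells was sequenced after mRNA capture on beads, per the labels' protocols, 4 libraries per group. The submitters' processing notes list RSEM, fastp 0.18.0, StringTie 1.3.1 and Bowtie2 2.2.8, with builds GRCm39 and mm39, and the annotation release and strand setting are not given in the sources used here. The table deposited by the authors gives, for each gene, an expected count in each library, not scaled between libraries, and TPM, scaled for transcript length and depth by the authors. Group and replicate came from the titles, and no pairing of numbers is stated.

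Expected counts were rounded and fitted with edgeR 4.0.16 in R 4.3.3: filterByExpr at a minimum count of 10, TMM factors, and glmQLFit and glmQLFTest contrasts in 1 fit of the 16 libraries. SE was the log2 change divided by the root of F. Benjamini-Hochberg adjustment ran over 11319 genes per contrast, and 0.05 was the threshold. The fit was tested on simulated data. The members and the gene lists were chosen with earlier results of these data known. All members were named, with the 3 most correlated genes per called member and, per list, up to 4 called genes per contrast and the most abundant gene. A member under 10 counts in 9 or more libraries was taken as not measured. Replicates differed by more than counting error: over 24 pairs within groups, the chi-square per degree of freedom ran from 2.71 to 17.8.

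Alternatives were a replicate block, only the compared groups, DESeq2 size factors, upper-quartile factors, no filter, a filter of 5 TPM in 4 libraries, DESeq2 1.42.0, each library left out, and controls 1 and 2 or the libraries numbered 1 left out together. Counts over the lists without controls 1 and 2 or library 2 of the combination were added after the data were seen.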

Additional observations from a re-analysis of the deposited data

Results flagged for a closer look

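In a group of 4 libraries, 1 value lay far from the other 3 in 4 of the 33 gene and group combinations with any spread. Among the 4 measured members this was so in 1 of 16 combinations, where chance alone gives about 1 of 20. That value was Mmp19 in oxLDL library 4, with 5.63 TPM while the remaining oxLDL libraries held 7.26 to 7.575 TPM. The other cases were at counts too low to measure, where values are steps of a few counts and the chance rate does not apply: Mmp12 in oxLDL library 3 at 0.164 TPM with the others at 0, Mmp13 in control 1 at 0.045 TPM against 0.232 to 0.266 TPM, and Mmp14 in control 2 at 0.046 TPM with the others at 0.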

How the results depend on the processing

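Mmp9 passed with oxLDL, and with the combination against control and against tirzepatide, in all 25 alternatives each, with log2 changes from -0.71 to -0.45, from -0.74 to -0.47 and from -0.63 to -0.49. Timp1 with oxLDL passed in 22 of 24, failing without controls 1 and 2 (-1.29) and in 1 of the fits with a library left out (-1.51 to -1.26). Timp1 with tirzepatide passed in 14 of 24. It failed with only the compared groups (-1.23, adjusted p = 0.0594), without a filter (-1.22, adjusted p = 0.0559), without controls 1 and 2 (-1.12), without the libraries numbered 1 (-1.06) and in 6 fits with a library left out (-1.47 to -1.03). Timp1 could not be tested under the 5 TPM filter, nor Timp2. Deviations from group means correlated at -0.13 to 0.19 over 24 same-numbered pairs (median 0.018). Over 72 pairs with different numbers they correlated at -0.21 to 0.14 (median -0.0015). Of 16 libraries 6 correlated best with their own number. Whether the replicate numbers pair the libraries was not tested. With the replicate block the Timp1 interaction passed (2.25), and the counts of called genes were 750 for tirzepatide, 17 for the combination against oxLDL, 378 against tirzepatide and 29 for the interaction.

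Values near 0 changed sign. Mmp9 with tirzepatide was -0.0064 by upper-quartile factors, -0.17 without controls 1 and 2, -0.033 without the libraries numbered 1 and -0.079 to 0.090 with a library left out. Mmp9 for the combination against oxLDL was 0.0088 without the libraries numbered 1 and -0.10 to 0.051 with a library left out, and its interaction 0.14 without controls 1 and 2, 0.041 without the libraries numbered 1 and -0.12 to 0.046 with a library left out. Without controls 1 and 2, Timp2 was 0.22 with tirzepatide and 0.24 with the combination against control, and Mmp19 -0.039 with the combination. With a library left out, Timp2 ran from -0.38 to 0.23 with tirzepatide, from -0.36 to 0.25 with the combination against control and from -0.090 to 0.17 against tirzepatide (-0.0073 without the libraries numbered 1). Mmp19 ran from -0.11 to 0.011 with tirzepatide, and with the combination from -0.10 to 0.12 against control and from -0.045 to 0.17 against tirzepatide.

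Counts of called genes moved by over 1.5 times. In the order oxLDL, tirzepatide and combination against control, combination against oxLDL and against tirzepatide, and interaction, the 514, 462, 1012, 4, 174 and 8 genes called ranged from 307 to 594, 119 to 542, 475 to 1450, 2 to 8, 58 to 444 and 1 to 16 with a library left out. With only the compared groups, 264 were called for tirzepatide, 410 for the combination against control, 7 against oxLDL and 107 against tirzepatide. Without a filter the combination had 32 against oxLDL, 282 against tirzepatide and 39 for the interaction, and by DESeq2 18, 312 and 48. Without controls 1 and 2 there were 307 for oxLDL, 204 for tirzepatide, 8 for the combination against oxLDL and 5 for the interaction. Without the libraries numbered 1 there were 291 for tirzepatide, 13 against oxLDL, 86 against tirzepatide and 4 for the interaction. By log2 CPM, which unlike TPM is not scaled for transcript length, 2 of the 4 measured members kept their place in the order by level. Their lowest and highest group was kept by 2, a count that was 2 to 4 by TPM with a library left out. The cause was not tested.

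Depth limits Timp1 and Timp2, whose counts did not exceed 29 in a library.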

Other observations

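In each of the 4 groups the library numbered 1 had the lowest Mmp9, at 35.5 TPM with the combination, 41.55 TPM with oxLDL, 60.3 TPM with tirzepatide and 50.0 TPM in controls. The labels give these numbers no meaning beyond the library.

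After the group means were subtracted, Pearson's r of log2 CPM between Mmp9 and Timp1 over the 16 libraries was -0.54, against -0.03 before. It was the strongest among the pairs of measured members, the others running from -0.21 to 0.11. It describes libraries that share groups, and Timp1 had only 6 to 29 counts per library.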
